A study of Mus musculus with 9 samples.

Results

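Small nucleolar RNA (snoRNA) genes were examined in sorted microglia, the resident macrophages of the brain. The members were all probe sets with a single gene symbol starting with Snora or Snord, with the probe set of the highest mean over the 9 arrays standing for a gene; members were thus chosen by name, and a gene's probe set was selected on its mean signal. This gave 73 genes of 22180 in all, 26 of the H/ACA class (Snora) and 47 of the C/D box class (Snord). No difference between groups entered the choice of genes, but snoRNA genes were taken up with earlier results of these data known, among them the low Snora75 signal of the FAD DKO arrays. Another 43 probe sets that carry a snoRNA symbol together with other symbols, often that of the surrounding gene, were left out.

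Expression was measured on 3 arrays for each of 3 genotypes of female C57Bl/6 mice aged 24 to 28 weeks. FAD DKO mice (FAD Hdac1/2fl/fl Cx3cr1CreERT2) carried a familial Alzheimer's disease (FAD) background, floxed Hdac1 and Hdac2 alleles and Cx3cr1CreERT2, a tamoxifen-inducible Cre recombinase in the fractalkine receptor gene Cx3cr1, which is active in microglia and other cells of the macrophage lineage. FAD mice (FAD Hdac1/2fl/fl) carried the same background and floxed alleles without the Cre. The third group was labelled wild type (WT), and every group was given 8 mg of tamoxifen at 6 weeks of age, so that no group without tamoxifen was examined here. FAD DKO and FAD arrays therefore differ in Cre as well as in deletion, and FAD and WT arrays in the disease background as well as in the floxed alleles. Whether each array of a group stands for its own animal is not stated in the labels. The p-values therefore measure a spread between samples that may be technical.

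snoRNAs are short stable RNAs of the nucleolus. Those of the C/D box class bind fibrillarin, Nop56, Nop58 and Snu13 and guide 2'-O-methylation of ribosomal RNA, while those of the H/ACA class bind dyskerin, Nhp2, Nop10 and Gar1 and guide pseudouridylation. A few act in the cutting of the ribosomal RNA precursor instead. In mammals most lie in introns of other genes, many of which make ribosomal or nucleolar proteins, and are released when the intron is spliced and trimmed; a few have promoters of their own.

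Levels are given as the deposited log2 signal, on which a difference of 1 is a 2-fold change, and are compared between arrays for the same gene only. In the RefSeq table of mouse the members were 56 to 205 bases long in the H/ACA class (median 118.5) and 48 to 221 bases in the C/D class (median 68). Their mean signals ranged widely, between 3.48 and 10.23 for H/ACA genes and between 2.66 and 10.12 for C/D genes. Of the 73, 19 lay below the median of all gene means (5.45), 26 between that and the upper quartile (6.90), and 28 above it. A signal from a probe set in an intron can come from the mature snoRNA, from its precursor or from unspliced host RNA, and these cannot be told apart here.

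The targeted genes Hdac1 and Hdac2 were lower on every FAD DKO array than on every FAD and WT array, so they went against no label, although their probes may lie outside the deleted parts. Cx3cr1, the gene that holds the Cre, was also lower on every FAD DKO array. It differed by -0.25 from FAD and by -0.33 from WT, and neither difference was called. Of 12 microglia markers 11 were measured, and all 11 were above the median gene. Their mean signal lay between 10.73 and 10.83 on FAD DKO arrays, between 10.75 and 10.83 on FAD arrays and between 10.88 and 10.90 on WT arrays. Mean signals of neuron, astrocyte, oligodendrocyte, endothelial, border macrophage and lymphocyte markers lay between 4.53 and 5.63 on all 9 arrays. Monocyte and neutrophil markers (6 of 6 measured) varied most, with mean signals of 6.77, 8.91 and 8.13 on FAD DKO arrays, 8.14 to 8.37 on FAD arrays and 7.34 to 8.25 on WT arrays. FAD DKO replicate 2, which had the highest of these values, also held the lowest signal of the 9 arrays for 30 of the 73 snoRNA genes. The main counts and medians, and those differences between FAD DKO and FAD of snoRNA genes and core proteins of their particles below that move by over 1.5 times without it, are given with and without it, a step added after the values were seen. The part of monocytes and neutrophils in the results was not tested. In a sorted sample, fewer cells of a type and less RNA per cell cannot be told apart.

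FAD DKO microglia were set against FAD microglia to see what goes with the Cre and the deletion of Hdac1 and Hdac2 on the disease background. Most snoRNA genes had less signal in FAD DKO microglia, with 60 of 73 below 0, a median log2 difference of -0.21, and 1 gene past the test. Over all 22180 genes 46.7% lay below 0 and the median was 0.01. Both classes lay on the same side, with 21 of 26 H/ACA genes below 0 (median -0.20) and 39 of 47 C/D genes below 0 (median -0.28). The difference between the classes was not tested.

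Snora75, an H/ACA RNA in the nucleolin gene Ncl, had log2 signals of 7.16, 7.04 and 6.79 in FAD DKO, 8.97, 8.54 and 8.41 in FAD, and 8.27, 8.42 and 8.31 in WT. Every FAD DKO array lay more than 1 log2 unit below every array of the other genotypes, while FAD and WT arrays overlapped. Group means were 7.0 ± 0.192 in FAD DKO and 8.64 ± 0.294 in FAD (SD, n = 3 each). Snora75 thus fell by 1.64 on the log2 scale (SE 0.149, limma adjusted p = 0.0121), a 3.12-fold lower signal. It ranked second from the bottom among the differences of all genes and the third by p. In limma 5 of all genes (0.0225%) passed an adjusted p under 0.05, and Snora75 was the 1 snoRNA among them, a call that was known when the gene set was chosen. Leaving out 1 array kept its difference between -1.76 and -1.48 but ended the call in 4 of 9 fits, among them the fit without FAD DKO replicate 2 (adjusted p = 0.111).

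**Figure D1:**
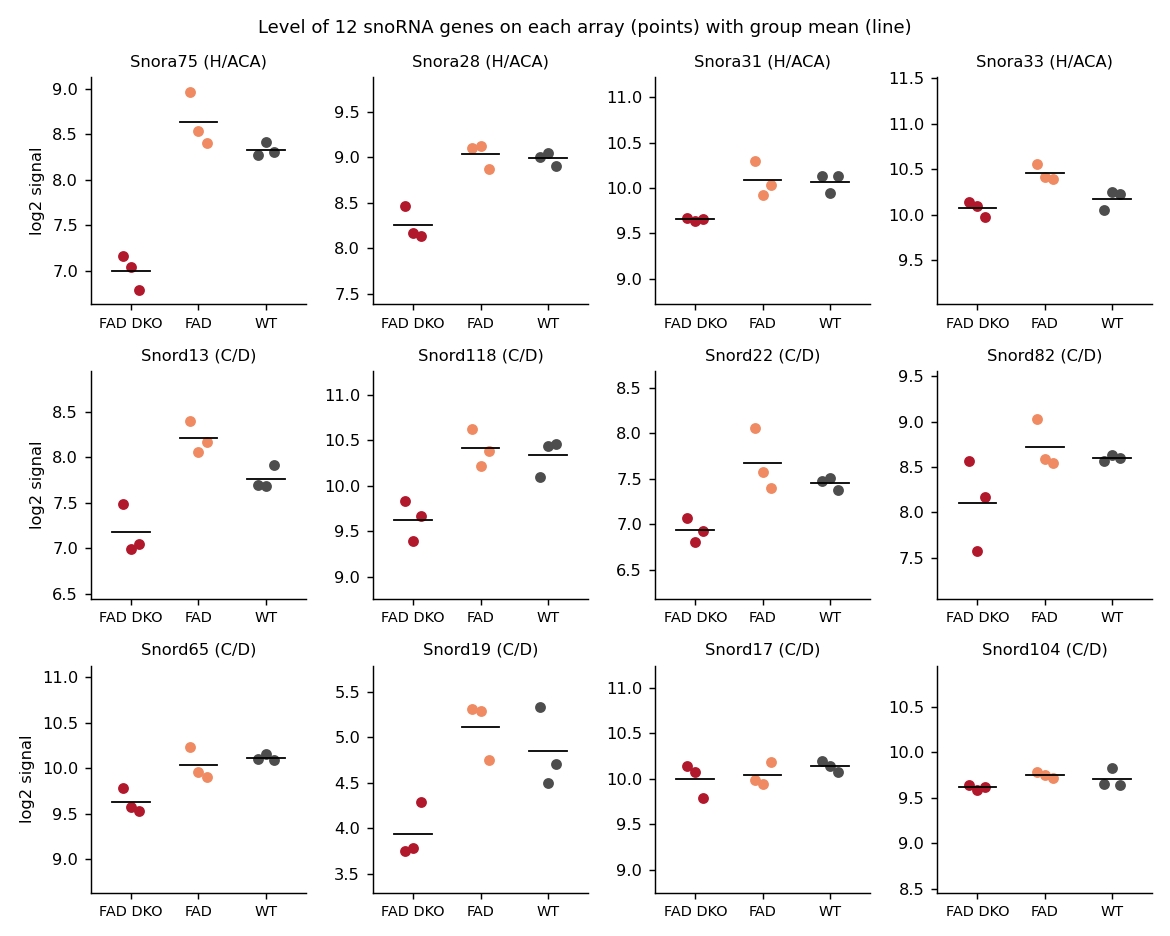
Log2 signal of 12 snoRNA genes on each of the 9 arrays, with points for arrays, lines for group means (n = 3) and a vertical span of the same size in every panel. FAD DKO points lie below all FAD and WT points for Snora75, Snora28, Snora31, Snord13, Snord118, Snord22, Snord65 and Snord19, but overlap them for Snord17.

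Among the other H/ACA genes Snora28, a pseudouridylation guide of 18S ribosomal RNA that lies in the translation factor gene Eif5, had the smallest p. Its signals were 8.47, 8.17 and 8.14 in FAD DKO, 9.11, 9.12 and 8.87 in FAD, and 9.01, 9.05 and 8.91 in WT. The FAD DKO arrays did not overlap those of either other genotype, and FAD and WT arrays interleaved. The difference between FAD DKO and FAD was -0.77 (SE 0.108, limma adjusted p = 0.149), which missed the threshold. Snora33 and Snora31, the brightest H/ACA genes, guide pseudouridylation of 28S ribosomal RNA. Snora33 had 10.14, 10.10 and 9.97 in FAD DKO, 10.56, 10.42 and 10.39 in FAD, and 10.05, 10.25 and 10.23 in WT. Its FAD arrays stood above both other genotypes, and FAD DKO and WT arrays overlapped. Snora31 had 9.67, 9.64 and 9.66 in FAD DKO, 10.30, 9.93 and 10.03 in FAD, and 10.13, 9.95 and 10.13 in WT, so that its FAD DKO arrays lay below all the rest. The limma adjusted p was 0.273 for Snora33 and 0.30 for Snora31 between FAD DKO and FAD.

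Among the C/D genes, Snord118 and Snord13 are taken first as the 2 of smallest p. Snord118, also called U8, is needed for the maturation of 5.8S and 28S ribosomal RNA and has a promoter of its own. Its signals were 9.83, 9.39 and 9.67 in FAD DKO, 10.63, 10.22 and 10.39 in FAD, and 10.10, 10.44 and 10.46 in WT. Snord13, or U13, which directs acetylation of 18S ribosomal RNA and is also transcribed on its own, had 7.49, 7.0 and 7.04 in FAD DKO, 8.40, 8.06 and 8.17 in FAD, and 7.70, 7.68 and 7.91 in WT. For both genes every FAD DKO array was lower than every other array, and for Snord13 the FAD arrays also stood above the WT arrays. The FAD DKO minus FAD difference was -0.78 for Snord118 (SE 0.151, limma adjusted p = 0.225) and -1.03 for Snord13 (SE 0.144, adjusted p = 0.149).

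Snord22, which lies in the noncoding host gene Snhg1 and whose frog counterpart U22 takes part in 18S processing, had 7.07, 6.80 and 6.93 in FAD DKO, 8.06, 7.58 and 7.40 in FAD, and 7.48, 7.51 and 7.38 in WT. Its FAD DKO arrays lay below all others, with a difference from FAD of -0.75 (SE 0.154, limma adjusted p = 0.246). Snord43, a methylation guide for 18S ribosomal RNA, and Snord49a, a guide for 28S, differed by -0.57 and -0.58 (adjusted p = 0.229 and 0.305). Snord65 had 9.78, 9.57 and 9.53 in FAD DKO, 10.23, 9.96 and 9.90 in FAD, and 10.10, 10.15 and 10.09 in WT, again with FAD DKO lowest on every array. Snord19 showed a large difference of -1.18 (adjusted p = 0.247), but its mean signal of 4.63 lay below that of the median gene. The same holds for Snord70 (-0.81), and for Snord1b (-0.76), the dimmest member with a mean signal of 2.66.

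Not every bright snoRNA gene differed. Snord17, the longest member, had 10.14, 10.08 and 9.79 in FAD DKO, 9.98, 9.94 and 10.18 in FAD, and 10.20, 10.14 and 10.08 in WT. The genotypes overlapped, with a difference of -0.03 between FAD DKO and FAD (SE 0.105), or -0.07 without FAD DKO replicate 2. Snord104, a 28S methylation guide, had 9.64, 9.58 and 9.62 in FAD DKO, 9.78, 9.75 and 9.72 in FAD, and 9.65, 9.82 and 9.64 in WT. Here the FAD DKO and FAD arrays did not overlap, although the difference was only -0.14 (limma adjusted p = 0.643). Snord52 was the 1 member whose FAD DKO arrays all lay above the FAD arrays, with a difference of 0.16 at a mean signal of 4.82.

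The remaining members filled the range between these. Snora21, an H/ACA gene in the ribosomal protein gene Rpl23, had 8.16, 7.66 and 8.06 in FAD DKO, 8.66, 8.34 and 8.21 in FAD, and 8.24, 8.20 and 8.13 in WT. Its FAD DKO and FAD arrays stood apart by a small gap, while FAD DKO and WT arrays overlapped, and the difference between FAD DKO and FAD was -0.44 (limma adjusted p = 0.503), or -0.29 without FAD DKO replicate 2. Snord47, a C/D gene in the noncoding gene Gas5, had 8.51, 7.93 and 8.46 in FAD DKO, 9.12, 8.87 and 8.61 in FAD, and 8.34, 8.49 and 8.68 in WT. It showed the same order, with a difference of -0.57 (adjusted p = 0.453). The 13 members above 0 reached at most 0.18 (Snord42b), and among the bright ones were Snord23 (0.14), Snora30 (0.11) and Snord71 (0.08), all with overlapping arrays. Without FAD DKO replicate 2 these were 0.08 for Snord23, 0.21 for Snora30 and 0.13 for Snord71. Snora73a and Snora73b, near-identical H/ACA genes in Snhg3 whose RNA acts in 18S processing, differed by -0.01 (-0.10 without FAD DKO replicate 2) and -0.24. Their probe sets may read each other's RNA, so these values are uncertain.

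Counted over all members, 26 of 73 (35.6%) had every FAD DKO array below every FAD array, against 6.5% of all genes. In the other direction the count was 1 of 73 (1.37%), against 5.38% of all genes. By class the lower count was 6 of 26 H/ACA genes (23.1%) and 20 of 47 C/D genes (42.6%). An unadjusted limma p under 0.05 with a lower signal was reached by 29 members (39.7%), against 4.41% of all genes, and with a higher signal by 1 (1.37%), against 3.69%. When FAD DKO replicate 2 was left out, a step added once the values had been seen, 29 members (39.7%) were lower without overlap, against 10.9% of all genes, and 54 of 73 lay below 0. The medians without that array were -0.13 for H/ACA genes and -0.21 for C/D genes.

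**Figure D2:**
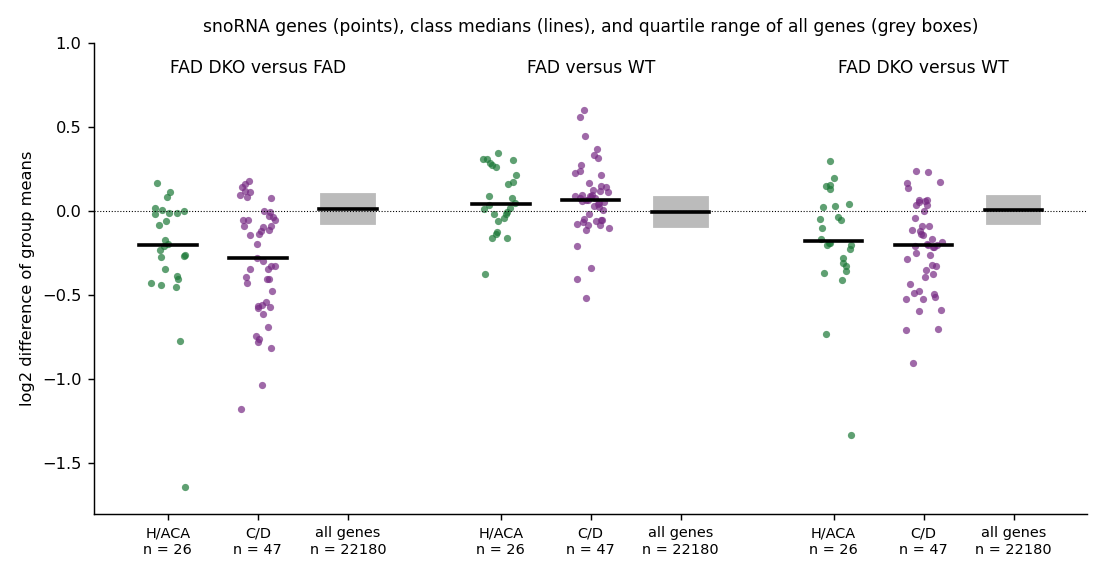
Log2 difference of group means for each snoRNA gene (points) by class in the comparisons FAD DKO versus FAD, FAD versus WT and FAD DKO versus WT, with class medians (lines) beside the median and quartile range of all 22180 genes (grey boxes). Class medians are -0.20 and -0.28 for FAD DKO versus FAD, 0.04 and 0.07 for FAD versus WT, and -0.18 and -0.20 for FAD DKO versus WT.

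The members' median difference between FAD DKO and FAD went with signal level. Below the median of all genes 13 of 19 members lay below 0, with a median of -0.05, and 3 (15.8%) had lower FAD DKO arrays without overlap, against 2.2% of the 11090 genes of that range. Between the median and the upper quartile 23 of 26 lay below 0 (median -0.25), and 8 (30.8%) were lower without overlap, against 7.32% of 5545 genes. Above the upper quartile 24 of 28 lay below 0 (median -0.40), and 15 (53.6%) were lower without overlap, against 14.3% of 5545 genes. In the bright range the classes had similar medians, -0.41 over 10 H/ACA genes and -0.35 over 18 C/D genes. In the middle range they were -0.15 over 10 H/ACA genes and -0.33 over 16 C/D genes. All genes were shifted with level too, but by less, with medians of 0.04, 0.00 and -0.03 from the dim to the bright range. Without FAD DKO replicate 2 the members' medians were -0.08, -0.16 and -0.32 from the dim to the bright range, and 10 of 19, 21 of 26 and 23 of 28 lay below 0. The median of C/D genes in the middle range was then -0.20. Between FAD DKO and WT the members' medians were -0.14, -0.20 and -0.20 from the dim to the bright range, so the middle and bright ranges were alike. Without FAD DKO replicate 2 these were -0.04, -0.08 and -0.16.

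**Figure D3:**
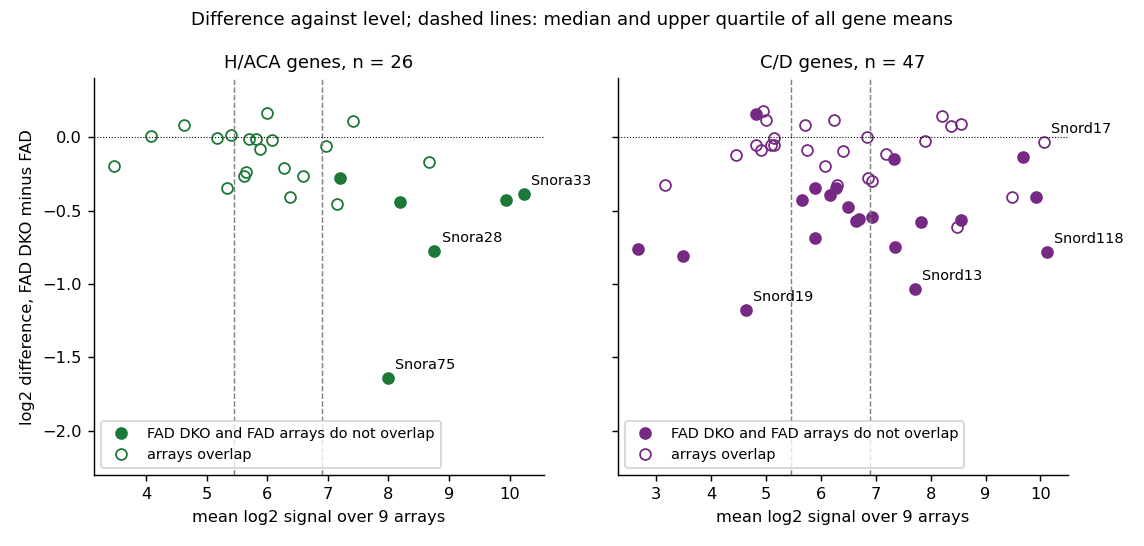
Log2 difference of FAD DKO minus FAD against the mean log2 signal over the 9 arrays, for 26 H/ACA genes (left) and 47 C/D genes (right), with dashed lines at the median (5.45) and upper quartile (6.90) of all gene means. Filled points mark genes whose FAD DKO and FAD arrays do not overlap, 15 of them lower among the 28 genes above the upper quartile.

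Other small RNA classes were counted in the same way, without a test between classes. Of 483 microRNA genes, the largest such class on the array, 212 lay below 0 between FAD DKO and FAD (median 0.03). Without overlap 11 of 483 were lower, against 6.5% of all genes, and 25 of 483 higher, against 5.38%. Over all levels the higher count thus lay near the share of all genes. Among the 54 microRNA genes above the upper quartile the median was 0.08. Of these 54, 10 were higher without overlap, against 310 of the 5545 genes of that range. Lower without overlap were 2 of the 54, against 792 of the 5545. The 7 genes of spliceosomal, 7S, vault and Y RNA that carried those names all lay below 0 (median -0.25). Of these 7, 2 were lower without overlap, against 6.5% of all genes. Of 5 Scarna genes, whose RNAs guide modification of spliceosomal RNA in Cajal bodies, 3 lay below 0.

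Array by array, the median deviation of H/ACA genes from their 9-array means was -0.05, -0.19 and -0.03 on FAD DKO arrays, 0.11, 0.00 and 0.09 on FAD arrays, and 0.08, 0.01 and 0.00 on WT arrays. For C/D genes it was -0.04, -0.27 and -0.07 on FAD DKO arrays, 0.10, 0.04 and 0.11 on FAD arrays, and 0.06, 0.02 and 0.02 on WT arrays. In these medians over all levels the 3 FAD DKO arrays were the lowest, with FAD DKO replicate 2 far below the other FAD DKO arrays. For the 28 members above the upper quartile the medians were -0.06, -0.26 and -0.21 on FAD DKO arrays and 0.31, 0.08 and 0.10 on FAD arrays. FAD replicate 1 held the highest signal of the 9 arrays for 20 of the 73 members. Without FAD replicate 1, 59 of 73 lay below 0 between FAD DKO and FAD. The median over all genes stayed within 0.01 of 0 on every array.

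**Figure D4:**
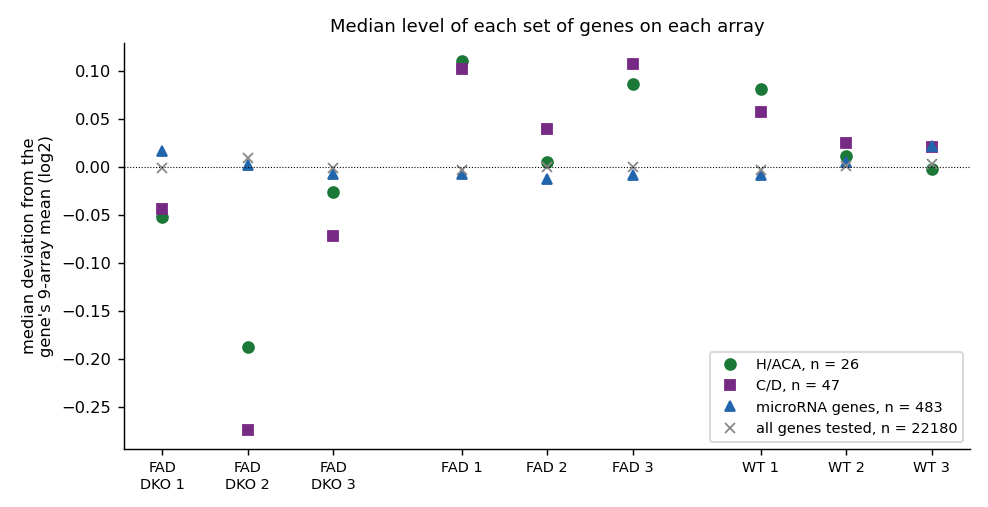
Median over genes of the deviation from the gene's 9-array mean (log2) on each array, for H/ACA genes, C/D genes, microRNA genes and all genes tested. The snoRNA medians are lowest on FAD DKO replicate 2 (-0.19 and -0.27), while those of microRNA genes and all genes lie close to 0 on all 9 arrays.

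Of the 73 snoRNA genes, 70 lay within the span of another gene in the RefSeq table (GRCm38.p6), which gives no strand, and 57 of these had a host that was itself measured (43 hosts). Snord13, Snord118 and Snord89 lay in no such span. Hosts were lower as well, by less in the median but without overlap about as often as the members. Their median log2 difference between FAD DKO and FAD was -0.10. Without overlap 16 of 43 (37.2%) were lower, against 35.6% of members, 6.5% of all genes and 14.3% of genes above the upper quartile. In the other direction 3 were higher, against 5.38% of all genes. In limma 0 passed an adjusted p under 0.05. With an unadjusted limma p under 0.05, 13 were lower (against 4.41% of all genes) and 0 higher (against 3.69%). Nucleolin (Ncl), which holds Snora75 and Snord82, had 8.58, 8.61 and 8.72 in FAD DKO, 9.37, 8.92 and 9.06 in FAD, and 8.81, 8.87 and 8.86 in WT. Its FAD DKO arrays lay below all others, with a difference from FAD of -0.48 (SE 0.11, adjusted p = 0.287). That is less than the difference of Snora75 by 1.16 on the log2 scale.

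Members of the same host did not always have like differences. Snord82, the C/D member in Ncl, had 8.57, 7.58 and 8.17 in FAD DKO, 9.03, 8.58 and 8.55 in FAD, and 8.57, 8.63 and 8.60 in WT. FAD DKO replicate 1 overlapped both other genotypes, and the difference from FAD was -0.61 (SE 0.224), and -0.35 without FAD DKO replicate 2. In Gnl3, the gene of the nucleolar GTPase nucleostemin, which differed by -0.57, Snord19 was at -1.18 and Snord69 at -0.05 (0.16 without FAD DKO replicate 2), both at low signal. In Nop58, the gene of a C/D core protein, which differed by -0.53, Snord70 was at -0.81 and Snord11 at 0.12. The lncRNA gene Snhg12 (-0.47) holds Snord99 (-0.47), Snora44 (-0.28), Snora16a (-0.27, or -0.17 without FAD DKO replicate 2) and Snora61 (-0.02). By contrast Snord43 (-0.57) and Snord83b (-0.54) both lay near their host Rpl3, a ribosomal protein gene, at -0.51. Snord82, Snord69, Snord99, Snora44 and Snora61 were not picked by the naming rule, and their values had been seen when they were added for sharing a host with a picked gene.

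Members of a host can come from the same transcript, which was not checked here because hosts were assigned without strand. The sequence around the annotated start is shown for 4 hosts whose members differed among themselves. The 80 bases before the start are in lower case and the 20 bases from the start on are in capitals, from RefSeq on GRCm38.p6. The Ncl window is chr1:86359436-86359535 (minus strand), that of Gnl3 chr14:31019112-31019211 (minus strand), that of Nop58 chr1:59684926-59685025 (plus strand) and that of Snhg12 chr4:132308598-132308697 (plus strand).
Ncl: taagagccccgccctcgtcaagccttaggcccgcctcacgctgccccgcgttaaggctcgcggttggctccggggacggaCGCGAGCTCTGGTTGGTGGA
Gnl3: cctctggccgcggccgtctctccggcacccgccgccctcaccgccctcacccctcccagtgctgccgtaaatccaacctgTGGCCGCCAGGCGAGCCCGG
Nop58: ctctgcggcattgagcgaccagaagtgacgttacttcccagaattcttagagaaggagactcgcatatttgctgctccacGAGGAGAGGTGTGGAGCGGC
Snhg12: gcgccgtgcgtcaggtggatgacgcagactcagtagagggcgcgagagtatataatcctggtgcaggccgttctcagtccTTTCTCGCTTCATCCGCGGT
The E-box CACGTG, which reads the same on both strands, was found in none of these 4 windows of 300 bases (250 before the start and 50 from it on). It was found in 11 of the 48 windows (22.9%) of the 44 hosts whose windows were read, and in 7.15% of all 32851 windows in the table. Such a match is a description of the letters and not a binding site.

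Across the 57 pairs of member and measured host, Pearson's r between the FAD DKO minus FAD differences was 0.36 and Spearman's rho 0.21. The pairs share arrays, and several share a host, so this is a description only. In 36 of 57 pairs the snoRNA gene was lower than its host. Of 13 members in ribosomal protein genes 11 were lower than the host, with a median of -0.35 against 0.06 for the 11 hosts. Snord58b (-0.69, or -0.37 without FAD DKO replicate 2) lies in Rpl17 (0.13), Snord16a (-0.56) in Rpl4 (0.06, or 0.11 without that array) and Snora7a (-0.46) in Rpl32 (0.13). The naming rule did not pick Snord58b and Snord16a, which were chosen after their values were seen. Of 15 members in long noncoding genes 10 were lower than the host, with a median of -0.26 against -0.11 for the 9 hosts. Members in other protein-coding genes had a median of -0.12 against -0.15 for their 23 hosts, and 15 of 29 were lower than the host. Without FAD DKO replicate 2 the snoRNA gene was lower in 33 of 57 pairs, with 10 of 13, 9 of 15 and 14 of 29 in these kinds of host.

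**Figure D5:**
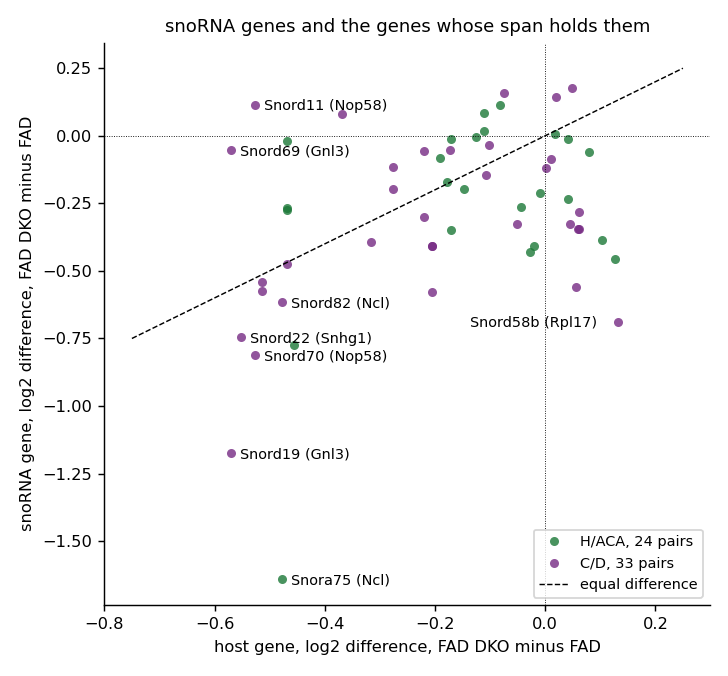
Log2 difference of FAD DKO minus FAD for 57 snoRNA genes (vertical) against that of the gene whose span holds them (horizontal), by class, with a dashed line where both are equal. Snora75 lies 1.16 below the line, and points at the right, whose hosts lie near 0, reach down to -0.69 (Snord58b in Rpl17, -0.37 without FAD DKO replicate 2).

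Among the snoRNA genes, those with patterns most like that of Snora75 over the 9 arrays were Snora28 (Pearson's r = 0.97), Snord22 (0.94), Snord13 (0.93), Snord118 (0.92) and Snord65 (0.92). Of these 5 genes none lies in Ncl, and Snord13 and Snord118 lie in no host. Over the same arrays Snora75 had an r of 0.829 with its own host Ncl. It was 0.955 for Snora28 with Eif5, 0.969 for Snord22 with Snhg1 and 0.698 for Snord65 with its lncRNA host 2410006H16Rik. These genes were picked for their likeness to Snora75, so their r need not stand for other members. Among other bright H/ACA genes, r with the host was -0.195 for Snora33, -0.045 for Snora31 and 0.752 for Snora23. Among other bright C/D genes it was 0.291 for Snord17 and 0.697 for Snord49b. The part of the hosts in these patterns was not tested.

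Protein genes of snoRNA particles and their maturation were read from a list of 39, of which 35 were measured. Between FAD DKO and FAD 29 of 35 lay below 0 (median -0.13), and 0 passed in limma over all genes. Without overlap 11 were lower (31.4%, against 6.5% of all genes) and 0 higher (against 5.38%). With an unadjusted limma p under 0.05, 7 were lower (against 4.41% of all genes) and 0 higher (against 3.69%). The 3 measured C/D core proteins were all lower without overlap. These were Nop58 (-0.53, adjusted p = 0.321), Nop56 (-0.32, adjusted p = 0.259) and Snu13 (-0.15, adjusted p = 0.594). Of the H/ACA core proteins Nhp2 (-0.28) was lower without overlap, while Dkc1, the pseudouridine synthase dyskerin (-0.23, or -0.10 without FAD DKO replicate 2), Gar1 (-0.10) and Nop10 (0.01, or -0.03 without that array) overlapped. The core proteins are all given here, also those the naming rule did not pick.

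FAD microglia were set against WT microglia to see what goes with the disease background and floxed alleles where no Cre was carried. snoRNA signals were slightly higher in FAD, with 48 of 73 above 0, 25 below 0 (against 52.1% of all genes) and a median of 0.06, and 0 members passed in limma, where 9 of all genes (0.0406%) did. Medians were 0.04 for H/ACA genes and 0.07 for C/D genes, against -0.01 for all genes. Leaving out 1 array gave 23 to 34 members below 0, with 34 of 73 in the fit without FAD replicate 3. Over these fits the medians ranged between 0.04 and 0.09 (H/ACA) and between 0.03 and 0.08 (C/D). At an unadjusted p under 0.05, 8 members were higher (11.0%, against 4.41% of all genes) and 2 were lower (2.74%, against 4.02%). FAD and WT arrays did not overlap for 7 higher members (9.59%, against 6.37%) and 2 lower members (2.74%, against 5.46%).

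The 7 higher members were Snord13 (0.45, limma adjusted p = 0.493), Snora33 (0.28, 0.458 by the same test, with a difference of 0.42 at its dimmer probe set), Snord87, Snora23, Snord83b, Snord70 and Snord90. The largest differences were 0.60 for Snord70 and 0.56 for Snord90, both with a mean signal below that of the median gene. Snord87, in the lncRNA gene Snhg6, had 7.58, 7.50 and 7.40 in FAD and 7.18, 7.34 and 7.02 in WT, so that the arrays did not overlap. Snora23 had 9.04, 8.66 and 8.79 in FAD and 8.61, 8.36 and 8.61 in WT, where the lowest FAD array was just above the highest WT arrays. Snora35, in the serotonin receptor gene Htr2c, was lower in FAD by 0.38 at a mean signal of 4.08 (adjusted p = 0.467), and Snora47 by 0.14. The protein list lay above 0 in FAD for 30 of 35 genes (median 0.11), with 0 called in limma. With an unadjusted limma p under 0.05, 9 were higher (against 4.41% of all genes) and 0 lower (against 4.02%). Hosts had a median of 0.11. Of the 43 hosts 13 were higher without overlap, against 9.59% of members and 6.37% of all genes, and 0 were lower, against 5.46% of all genes. Since the FAD arrays enter with opposite sign in FAD DKO versus FAD, the values of these 2 comparisons are not independent.

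The difference between FAD DKO and WT means does not use the values of FAD arrays, although its SE and p do through the shared fit. It shares the FAD DKO arrays with the comparison described first, and it combines disease background, floxed alleles, Cre and deletion. Of 73 members 54 lay below 0, with a median of -0.20. This was -0.18 for H/ACA genes (18 of 26 below 0) and -0.20 for C/D genes (36 of 47 below 0), against 0.00 over all genes, of which 48.7% lay below 0. Snora75 fell by 1.33 on the log2 scale (SE 0.149, limma adjusted p = 0.0227), with means of 7.0 ± 0.192 in FAD DKO and 8.33 ± 0.0787 in WT (SD, n = 3 each), and was the 1 member called. Of all genes 31 (0.14%) were called. Leaving out 1 array ended this call in 6 of 9 fits (adjusted p = 0.0765 without FAD DKO replicate 2), with the difference between -1.42 and -1.23.

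Snora28 came next by p at -0.73 (SE 0.108, limma adjusted p = 0.0512), which just missed the threshold. Snord65 (-0.49, adjusted p = 0.15), Snord118 (-0.71, adjusted p = 0.163) and Snord43 (-0.51, adjusted p = 0.179) had lower FAD DKO arrays without overlap but were not called. Snord13 differed by -0.59 and Snora31 by -0.41. Snora33, in contrast, differed by -0.10 from WT with overlapping arrays, and its dimmer probe set (mean signal 7.07) by 0.14. In all, 15 of 73 members (20.5%) were lower without overlap, against 6.15% of all genes, and 1 (Snord52) was higher (1.37%, against 5.77%). At an unadjusted p under 0.05, 17 members were lower, against 4.19% of all genes, and 1 was higher, against 3.95%. Without FAD DKO replicate 2, 18 were lower without overlap (24.7%, against 11.4% of all genes) and 8 higher (11.0%, against 10.5%), and the medians were -0.10 for H/ACA and -0.12 for C/D genes. Hosts had a median of -0.01 (0.02 without that array) and the protein list of 0.00 (0.01 without it). The hosts lay on both sides, with 9 of 43 lower without overlap (20.9%, against 20.5% of members and 6.15% of all genes). In the other direction 6 of 43 were higher without overlap, against 5.77% of all genes. Of the 35 listed genes 2 were lower without overlap (5.71%, against 6.15% of all genes) and 2 higher (against 5.77%). Both counts lay near the share of all genes.

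Over the 3 genotypes, the FAD DKO mean was the lowest for 50 of 73 members (68.5%), against 31.2% of all genes and 32.7% of microRNA genes. By class it was the lowest for 16 of 26 H/ACA genes (61.5%) and 34 of 47 C/D genes (72.3%). The FAD mean was the highest for 44 members (60.3%), against 31.1% of all genes.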

How the data were processed

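Authors' values: per the submitters' processing notes the deposited table was made with RMA, and its values lie on a log2 scale, 1 per probe set and array. No source used here gives the software version, summary level or gene models. Per the labels' protocols, total RNA of sorted cells was amplified and labelled with biotin; how well short RNAs survive these steps was not tested. No detection calls were used, so signal over background is unknown, and the number of arrays limits the precision.

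Of 41345 probe sets, 23521 carried a single gene symbol in the platform annotation, giving 22180 genes. All 9 arrays entered 1 linear model with a mean for each genotype (limma 3.58.1 under R 4.3.3, lmFit then eBayes, 6 residual degrees of freedom). The model was also run on simulated data. Noise there was drawn independently for each gene, so that run does not cover shifts of an array shared by many genes. Two-sided p-values were adjusted by the Benjamini-Hochberg method over all genes, and calls were made below an adjusted p of 0.05. The members were not tested as a list. Members and lists were chosen with earlier results of these data known. Named members were the 6 with the smallest p in each direction per comparison and class, any called, the 5 brightest of each class, and their hosts. A host was the shortest gene, small RNA genes aside, whose span holds the snoRNA gene. Alternatives tried were a filter on dim genes, quantile normalization, trended and robust variance, the compared groups alone, array weights, averaged probe sets, all probe sets tested singly, replicate number as block, and each array left out. Figures were drawn with matplotlib 3.10.9.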

Additional observations from a re-analysis of the deposited data

How the results depend on the processing

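The number of snoRNA genes called for FAD DKO versus FAD (1) was 3 with a low-signal filter and 3 with a trended and robust variance, where Snora28 (adjusted p = 0.0458 and 0.0306) and Snord13 (0.0458 and 0.033) joined Snora75, and 0 with the 2 groups alone (Snora75 adjusted p = 0.215). For FAD DKO versus WT (1) it was 2 with a low-signal filter, 2 with quantile normalization, 2 with array weights, 3 with a trended and robust variance and 0 with every probe set tested. For FAD versus WT it was 0 under every alternative. Leaving out 1 array gave 0 to 2 calls for FAD DKO versus FAD and 0 to 1 for FAD DKO versus WT. Over these fits the medians ranged between -0.27 and -0.13 (H/ACA) and between -0.31 and -0.21 (C/D) for FAD DKO versus FAD, and between -0.18 and -0.10 (H/ACA) and between -0.26 and -0.12 (C/D) for FAD DKO versus WT; the values nearest 0 came without FAD DKO replicate 2. The cause of these moves was not tested. Same-numbered arrays did not deviate together (correlations from -0.11 to 0.12), so the labels' numbers were not taken as pairs; with the replicate block 1 member was called for FAD DKO versus FAD, 0 for FAD versus WT and 1 for FAD DKO versus WT, and the medians kept their signs. Of 44 differences of named members whose groups did not overlap, 0 were reversed under any alternative. Leaving out an array cannot reverse a difference without overlap. Most other alternatives leave the group means unchanged, so this count was largely fixed in advance. Signal over background was not measured, so the error it adds to the 19 members below the median gene is unknown. Over all genes, calls for FAD DKO versus FAD (5) numbered 11 with the filter, 3 with quantile normalization, 12 with trended and robust variance, 0 with the 2 groups alone, 3 with every probe set and 2 with the replicate block; for FAD versus WT (9) the same settings gave 33, 14, 43, 5, 7 and 8, and array weights 22; for FAD DKO versus WT (31) they gave 117, 37, 124, 13, 8 and 11, and array weights 82.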
